A study of Mus musculus with 5 samples.

Results

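The genes described are 10 integrin chains of epithelial and mesenchymal cells: Itga2, Itga3, Itga5, Itga6, Itgav, Itgb1, Itgb4, Itgb5, Itgb6 and Itgb8. They were chosen by name as chains that bind collagen, laminin, fibronectin or the alpha-v type ligands, and each was read from the probe set that carries its symbol alone. All 10 were measured, each by 1 probe set, among 19938 genes tested. RNA from 5 primary mouse pancreatic cultures, grown with 10% serum for fewer than 6 passages, was hybridised to Affymetrix whole-transcript arrays, and each array gave 1 log2 signal per probe set. In the PDAC group, 3 cultures of primary cells from pancreatic ductal adenocarcinoma carried Pdx-1Cre, 2 floxed p53 alleles (p53L/L) and 1 floxed Apc allele (APCL/+). The normal ductal group held 2 cultures of normal pancreatic ductal cells with p53L/L but no floxed Apc allele, written with Pdx-1Cre in the title of replicate 1 and with Pdx-1 alone in that of replicate 2. The series design gives Pdx-1Cre for both groups, so Cre and the floxed p53 alleles were shared. The Pdx-1 promoter drives Cre in pancreatic progenitors, and floxed genes are meant to be recombined in their descendants.

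The title of normal ductal replicate 2 also lacked the word ductal, and mutant cell appeared in that of PDAC replicate 3 alone. Normal ductal replicate 2 stood apart in markers of other pancreatic cells: Ctrb1, which encodes a chymotrypsinogen of acinar cells, read 12.26, against 6.08 in the other normal ductal culture. The mean log2 signal of 8 acinar markers was 5.50 to 5.55 in the PDAC cultures, against 5.35 and 7.38 in normal ductal replicates 1 and 2. For 12 fibroblast and stellate markers it was 9.10 to 9.57 in PDAC cultures, against 7.19 and 9.76 in normal ductal cultures. The 14 epithelial markers averaged 6.28, 6.95 and 8.67 in PDAC replicates 1, 2 and 3, against 11.11 and 10.79 in normal ductal cultures. Apc itself, read over the whole transcript and not over the floxed part alone, was at 9.00, 9.06 and 8.58 in PDAC cultures, against 9.23 and 9.02 in normal ductal cultures, so the groups overlapped. The labels do not name separate animals, so p-values measure the spread between these 5 cultures, and their small number limits the precision. Array medians lay between 5.90 and 6.02.

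Integrins are receptors of an alpha and a beta chain that tie the extracellular matrix to the cytoskeleton. The beta1 chain pairs with many alpha chains, with alpha2 for collagen, with alpha3 and alpha6 for laminin and with alpha5 for fibronectin. The beta4 chain pairs with alpha6 alone and anchors epithelial cells to laminin through hemidesmosomes. The alpha-v chain pairs with beta5, a receptor for vitronectin, and with beta6 and beta8, both of which bind the latent form of TGF-beta and take part in its activation. Itgb6 is known mainly from epithelia.

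The comparison of PDAC with normal ductal cultures asks which of these receptors separate the tumour cultures from duct cells. The largest differences were those of Itga2, with a log2 fold change of -4.59, Itgb6 with -4.03 and Itgb4 with -3.02, and the laminin receptor chains Itga3 and Itga6 had -1.65 and -1.54. Both Itgb5 and Itgb8 stood higher in every PDAC culture, by 1.11 and 1.44. The shared chains Itgb1 and Itgav were lower by smaller amounts, and Itga5, the fibronectin receptor chain, overlapped between the groups. None of the 10 passed limma's moderated test at an adjusted p under 0.05 with Benjamini-Hochberg adjustment over all genes, against 0.0552% of all genes tested (0.00502% higher, 0.0502% lower). At an unadjusted p under 0.05, 5 of the 10 were lower and 2 higher, against 6.86% and 6.50% of all genes. In 9 of the 10 the groups did not overlap, 7 lower and 2 higher, against 26.4% of all genes (12.8% lower, 13.6% higher). The members were chosen by name with earlier results of these data known, so these counts describe them and test nothing. The median log2 fold change was -1.28 over the 10 chains, against 0.01 over all genes tested.

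To show what lies before the genes that differed most in either direction, the 250 bases before the start site are printed for the 2 chains with the largest negative and the 2 with the largest positive fold changes, 5′ to 3′ on the gene's strand. They come from RefSeq promoter entries on GRCm38.p6, which listed 8 of the 10 chains, all but Itga6 and Itgb4. Capitals mark matches on either strand to CACCTG (an E-box bound by Snail and Zeb factors, reverse complement CAGGTG) and GGGCGG (a GC box, reverse complement CCGCCC). The AP-1 type motif TGANTCA and the TEAD type motif GGAATG (reverse complement CATTCC) were searched as well. None of these motifs overlap in the 4 windows.
Itga2, chr13:114932101-114932350, minus strand: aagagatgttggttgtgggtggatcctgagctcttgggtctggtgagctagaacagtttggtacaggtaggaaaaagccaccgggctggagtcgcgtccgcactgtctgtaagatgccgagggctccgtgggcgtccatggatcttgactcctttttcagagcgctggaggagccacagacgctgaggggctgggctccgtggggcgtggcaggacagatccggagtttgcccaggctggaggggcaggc
Itgb6, chr2:60722604-60722853, minus strand: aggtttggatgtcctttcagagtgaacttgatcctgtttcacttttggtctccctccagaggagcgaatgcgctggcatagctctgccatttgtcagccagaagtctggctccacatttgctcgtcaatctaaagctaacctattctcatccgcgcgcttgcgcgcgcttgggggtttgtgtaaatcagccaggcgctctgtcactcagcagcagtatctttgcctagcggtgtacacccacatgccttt
Itgb5, chr16:33829415-33829664, plus strand: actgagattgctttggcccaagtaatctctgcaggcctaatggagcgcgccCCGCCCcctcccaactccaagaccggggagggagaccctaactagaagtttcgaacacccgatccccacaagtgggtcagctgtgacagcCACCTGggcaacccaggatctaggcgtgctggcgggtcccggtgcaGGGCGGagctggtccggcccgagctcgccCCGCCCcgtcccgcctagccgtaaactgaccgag
Itgb8, chr12:119238277-119238526, minus strand: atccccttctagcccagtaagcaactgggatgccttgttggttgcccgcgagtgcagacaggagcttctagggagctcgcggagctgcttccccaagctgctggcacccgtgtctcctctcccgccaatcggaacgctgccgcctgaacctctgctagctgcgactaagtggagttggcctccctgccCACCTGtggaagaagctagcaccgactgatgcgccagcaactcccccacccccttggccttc
The windows of Itga2 and Itgb6 held 0 matches to the 4 motifs. Itgb5 held 1 CACCTG and 3 GC boxes, and Itgb8 held 1 CACCTG. The windows not printed did not divide by direction in this way. Itga3, lower in PDAC cultures, held 1 CACCTG-type match and 3 GC boxes, and 1 GC box at a second start. Itgb1, also lower, held 1 GC box and 1 TEAD type match, and Itgav held 0 matches. Itga5, which overlapped between the groups, held 2 GC boxes. Of 32851 such windows in the table, 17.2% held CACCTG, 32.7% the GC box, 6.75% the AP-1 type motif and 12.6% the TEAD type motif. The G and C content was 60.8% for Itga2, 52% for Itgb6, 65.2% for Itgb5 and 62.4% for Itgb8, against a median of 52.4% over all windows. A second RefSeq start of Itgb6, further inside the gene, had 1 CACCTG-type match and a G and C content of 38%.

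**Figure D1:**
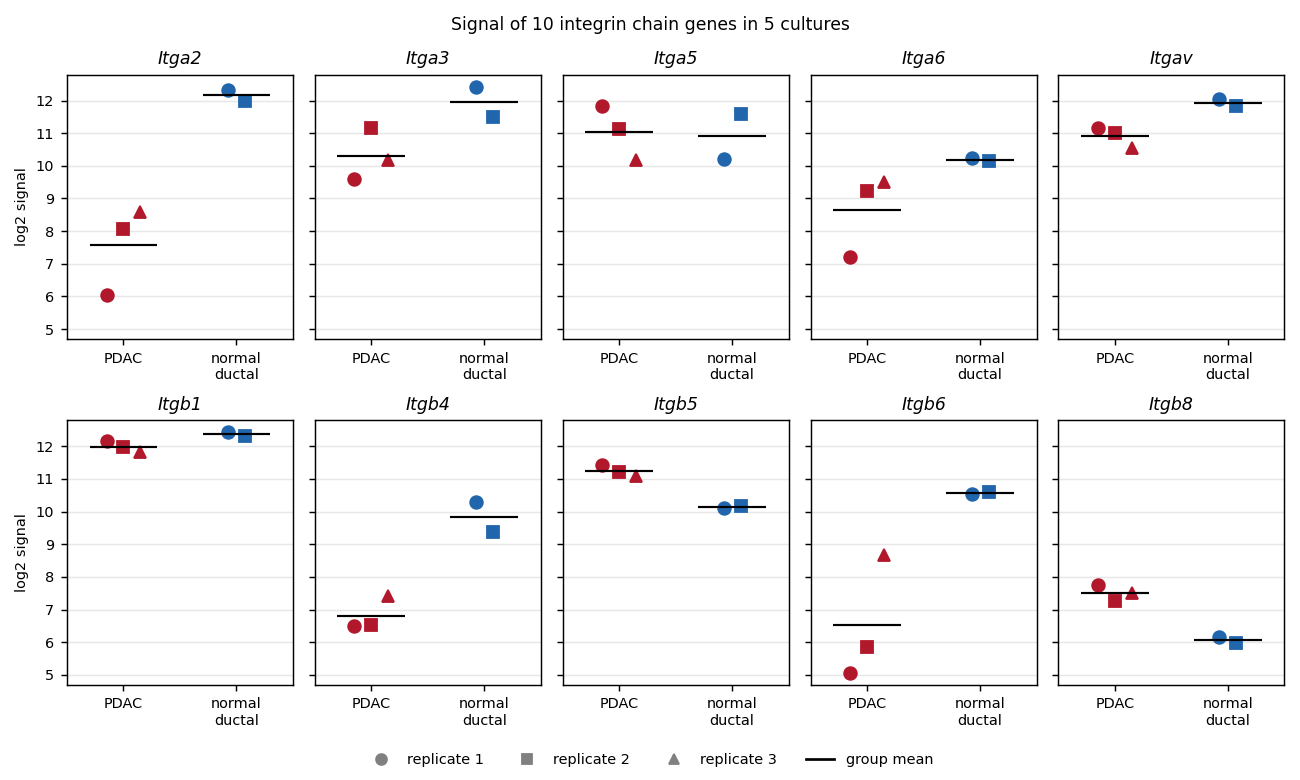
Log2 signal (vertical axis) of each integrin chain gene in the 3 PDAC cultures (red) and the 2 normal ductal cultures (blue), with symbols for replicates and bars for group means. Itga2, Itgb4 and Itgb6 lie far below the normal ductal cultures in every PDAC culture, Itgb5 and Itgb8 lie above them, and Itga5 overlaps.

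Among the alpha chains that pair with beta1, the collagen receptor chain Itga2 differed most. It lies on chromosome 13 from 114833081 to 114932100 in GRCm38. Its log2 signal was 6.05, 8.07 and 8.59 in PDAC replicates 1, 2 and 3, against 12.32 and 12.00 in normal ductal replicates 1 and 2. All 3 PDAC cultures were low, and the lowest, replicate 1, lay below the median level of all genes (6.61). The means were 7.57 ± 1.34 (SD, n = 3) in PDAC and 12.16 ± 0.23 (SD, n = 2) in normal ductal cultures, 24.0-fold higher in normal ductal cultures. This gave a log2 fold change of -4.59 (SE 0.89, 95% interval -7.07 to -2.11, limma adjusted p = 0.211), and it ran from -5.10 to -3.83 with any 1 culture left out. In RNA from whole cultures, fewer cells that express a gene and less RNA per cell cannot be told apart.

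The laminin receptor chain Itga3, on chromosome 11 from 95044475 to 95076844, was at 9.59, 11.16 and 10.17 in PDAC cultures, against 12.42 and 11.50 in normal ductal cultures. The groups did not overlap, but PDAC replicate 2 came within the spread of the normal ductal cultures: it lay closer to normal ductal replicate 2 than the normal ductal replicates lay to each other. The fitted log2 fold change was -1.65 (SE 0.60, limma adjusted p = 0.382), with an interval that reached 0.04. Itga6, the alpha chain that joins either beta1 or beta4, was at 7.22, 9.24 and 9.51 in PDAC cultures, against 10.23 and 10.15 in normal ductal cultures. The low value was that of PDAC replicate 1, and without it the log2 fold change was -0.82 in place of -1.54 (SE 0.82, limma adjusted p = 0.550). Itga6 lies on chromosome 2 from 71786886 to 71858427.

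The fibronectin receptor chain Itga5 had no direction that held. Its log2 signal was 11.84, 11.14 and 10.17 in PDAC cultures, against 10.21 and 11.60 in normal ductal cultures. The extremes of the 5 cultures were both PDAC cultures, and the normal ductal cultures differed from each other by 1.38. Limma fitted a log2 fold change of 0.15 (SE 0.71, 95% interval -1.85 to 2.14, limma adjusted p = 0.959), and it turned to -0.25 without PDAC replicate 1 and to -0.55 without normal ductal replicate 1. Fn1, the gene of fibronectin, was at 13.28, 13.06 and 12.72 in PDAC cultures, against 13.44 and 12.97 in normal ductal cultures, and overlapped as well.

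The shared chain Itgb1 was near the top of the scale in every culture, at 12.15, 11.98 and 11.83 in PDAC against 12.43 and 12.30 in normal ductal cultures. All PDAC cultures were lower by a small amount, a log2 fold change of -0.38 (SE 0.12, 95% interval -0.70 to -0.05, limma adjusted p = 0.329). Itgav, the alpha chain shared by beta5, beta6 and beta8, was at 11.17, 11.00 and 10.55 in PDAC cultures, against 12.06 and 11.82 in normal ductal cultures. This was a log2 fold change of -1.03 (SE 0.22, limma adjusted p = 0.233), 2.04-fold higher in normal ductal cultures. Itgb1 lies on chromosome 8 from 128685654 to 128733579, and Itgav on chromosome 2 from 83722303 to 83806917.

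Itgb4, the beta chain of hemidesmosomes, was at 6.50, 6.53 and 7.41 in PDAC cultures, against 10.29 and 9.39 in normal ductal cultures. PDAC replicates 1 and 2 lay below the median level of all genes and replicate 3 somewhat above it, while both normal ductal cultures lay far above. The means were 6.81 ± 0.52 (SD, n = 3) in PDAC and 9.84 ± 0.64 (SD, n = 2) in normal ductal cultures, 8.14-fold higher in normal ductal cultures. The log2 fold change was -3.02 (SE 0.45, 95% interval -4.30 to -1.75, limma adjusted p = 0.173), and -3.48 to -2.57 with any 1 culture left out. Itgb4 lies on chromosome 11 from 115974725 to 116008412.

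The beta chains that join alpha-v differed in direction. Itgb6 was at 5.07, 5.86 and 8.68 in PDAC cultures, against 10.53 and 10.60 in normal ductal cultures. PDAC replicates 1 and 2 lay below the median level of all genes, and replicate 3 lay between these and the normal ductal cultures. The log2 fold change was -4.03 (SE 1.24, 95% interval -7.51 to -0.54, limma adjusted p = 0.329), 16.3-fold higher in normal ductal cultures. It ran from -5.10 without PDAC replicate 3 to -3.29 without PDAC replicate 1 when a culture was left out. The PDAC cultures spanned 3.62 in Itgb6, the widest span among the 10 chains, and the normal ductal cultures 0.07. Itgb6 lies on chromosome 2 from 60598292 to 60722603.

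Itgb5 was at 11.43, 11.22 and 11.10 in PDAC cultures, against 10.11 and 10.18 in normal ductal cultures. It was high in all 3 PDAC cultures, with spans of 0.33 among PDAC and 0.07 among normal ductal cultures. The log2 fold change was 1.11 (SE 0.12, 95% interval 0.77 to 1.45, limma adjusted p = 0.148), a fold of 2.15. Itgb8 was at 7.76, 7.25 and 7.51 in PDAC cultures, against 6.16 and 5.99 in normal ductal cultures, which lay below the median level of all genes. The log2 fold change was 1.44 (SE 0.18, 95% interval 0.93 to 1.94, limma adjusted p = 0.164), a fold of 2.70. Both kept their direction with any 1 culture left out, at 1.02 to 1.18 for Itgb5 and 1.31 to 1.56 for Itgb8. Itgb5 lies on chromosome 16 from 33829665 to 33949338 and Itgb8 on chromosome 12 from 119162803 to 119238276.

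**Figure D2:**
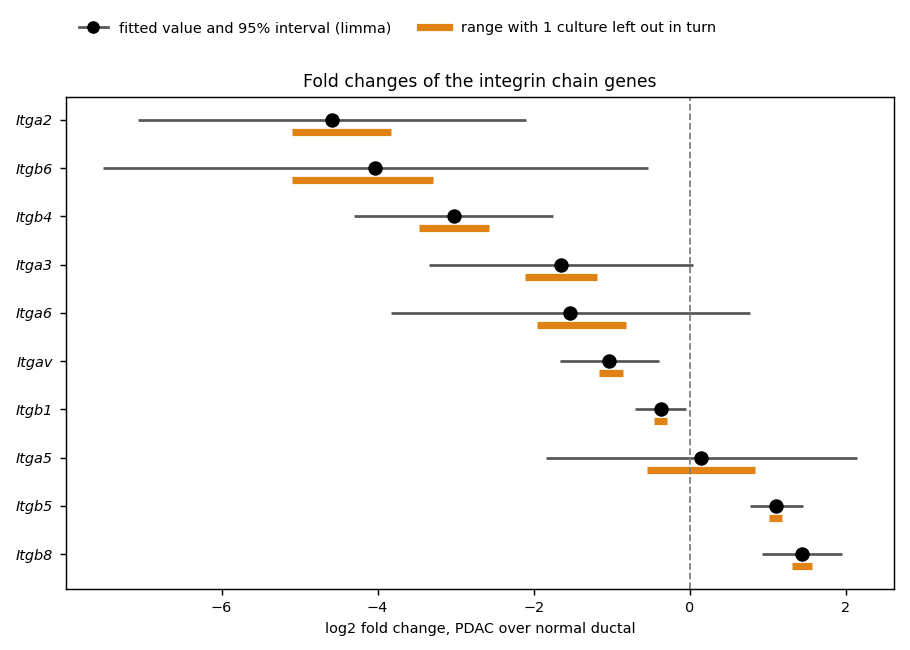
Log2 fold change of PDAC over normal ductal cultures (horizontal axis) for each chain, ordered by size, with the 95% interval of the limma fit (grey line) and the range of the fold change when each culture is left out in turn (orange bar). The intervals of Itga3, Itga6 and Itga5 reach past 0, and of the orange bars the one of Itga5 crosses it.

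Chains that share a partner were set against each other within each array, in 6 pairs. The log2 signal of Itgb4 minus that of Itgb1, both partners of alpha6, was -5.66, -5.45 and -4.42 in PDAC cultures, against -2.14 and -2.92 in normal ductal cultures, a difference between the fold changes of -2.65. For Itgb6 minus Itgb5 the values were -6.36, -5.36 and -2.42 in PDAC cultures, against 0.42 and 0.42 in normal ductal cultures, a difference of -5.14. The size of such a within-array value depends on both probe sets, and it is the difference between groups that can be read. Exact two-sided permutation tests over the 5 cultures gave p = 0.1 for the first pair and p = 0.2 for the second, and 0.1 is the smallest this design allows. Itga2 minus Itga5 gave a difference of -4.73 (exact permutation p = 0.2). For Itgb8 minus Itgb5 it was 0.33 (exact permutation p = 0.3), for Itga3 minus Itga5 -1.80 (exact permutation p = 0.6) and for Itga6 minus Itga5 -1.68 (exact permutation p = 0.4). Adjusted over the 6 pairs by Benjamini-Hochberg, these exact permutation p-values were 0.4 to 0.6.

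The chains varied in different ways among the PDAC cultures. Itga2, Itga6, Itgb4 and Itgb6 had their lowest value in PDAC replicate 1 and their highest PDAC value in replicate 3. Of the 14 epithelial markers, 14 had their highest PDAC value in replicate 3 and 11 their lowest in replicate 1, and E-cadherin (Cdh1) was at 6.41, 8.33 and 10.76 in PDAC cultures, against 12.32 and 11.96 in normal ductal cultures. In 13 of these markers the groups did not overlap, with every PDAC value below both normal ductal values, against 12.8% of all genes. Of 6 mesothelial markers, 6 had their highest PDAC value in replicate 3 and 5 their lowest in replicate 1. They averaged 5.59, 6.55 and 8.44 in PDAC replicates 1, 2 and 3, against 7.84 and 8.20 in normal ductal cultures, and Krt19 is on both lists. This average mixes unlike markers. Upk3b was at 5.55, 5.72 and 10.41 in PDAC cultures, against 5.72 and 5.72 in normal ductal cultures. Muc16 was at 3.68, 3.69 and 3.79 in PDAC cultures, against 6.36 and 6.41 in normal ductal cultures. It was the 1 mesothelial marker called (limma adjusted p = 0.0170), against 0.0552% of all genes. The part of the epithelial and mesothelial markers in the integrin differences was not tested. Itga5, Itgav, Itgb1 and Itgb5 ran the other way, with their highest PDAC value in replicate 1 and their lowest in replicate 3. The duct keratin Krt19 was at 6.47, 9.50 and 11.74 in PDAC cultures, against 11.46 and 11.37 in normal ductal cultures, so it was as high as in the normal ductal cultures in PDAC replicate 3 and below the median level of all genes in PDAC replicate 1.

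Between the normal ductal cultures, Itga5 was higher in replicate 2 by 1.38, while Itga3 and Itgb4 were lower there by 0.92 and 0.91. The other 7 chains differed by at most 0.32. Of the 12 fibroblast and stellate markers, 10 exceeded their replicate 1 level by more than 1 in normal ductal replicate 2. So did 4 of 8 acinar, 6 of 9 islet, 5 of 10 endothelial and 1 of 9 leukocyte markers, against 584 of all 19938 genes tested. The part of these markers in the differences of the chains was not tested. Decorin (Dcn), the fibroblast marker with the largest gap, was at 11.39 in replicate 2 and at 7.58 in replicate 1. Without normal ductal replicate 2 the log2 fold changes were -4.75 for Itga2, -4.00 for Itgb6, -3.48 for Itgb4, 1.14 for Itgb5 and 1.35 for Itgb8. They were -2.11 for Itga3, against -1.65 with that culture, and 0.84 for Itga5, against 0.15 with it.

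Measured by the root mean square difference of centred profiles over the 5 cultures, Itgb5 and Itgb8 were the most similar of the 45 pairs of chains (0.22), followed by Itgav and Itgb1 (0.34). Itga2 and Itgb6 differed by 0.79. Over all other genes tested, the profile of Itgb4 was closest to that of Erbb3 (0.16), a receptor of the EGF receptor family, and of Plekhs1 (0.22). Itgb6 was closest to Cxcl16 (0.22), a membrane-bound chemokine, and to the claudin gene Cldn6 (0.31). The genes nearest to Itga2 were Prrg4 (0.37) and Spint1 (0.51), a Kunitz-type protease inhibitor of epithelia. Those nearest to Itga6 were Tom1l1 (0.16) and Mamld1 (0.17), and those nearest to Itga3 were Tnfaip3 (0.18), an inhibitor of NF-kB signalling, and Pkhd1 (0.21), the gene of fibrocystin in the primary cilium. Over 5 cultures this likeness is a description.

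**Figure D3:**
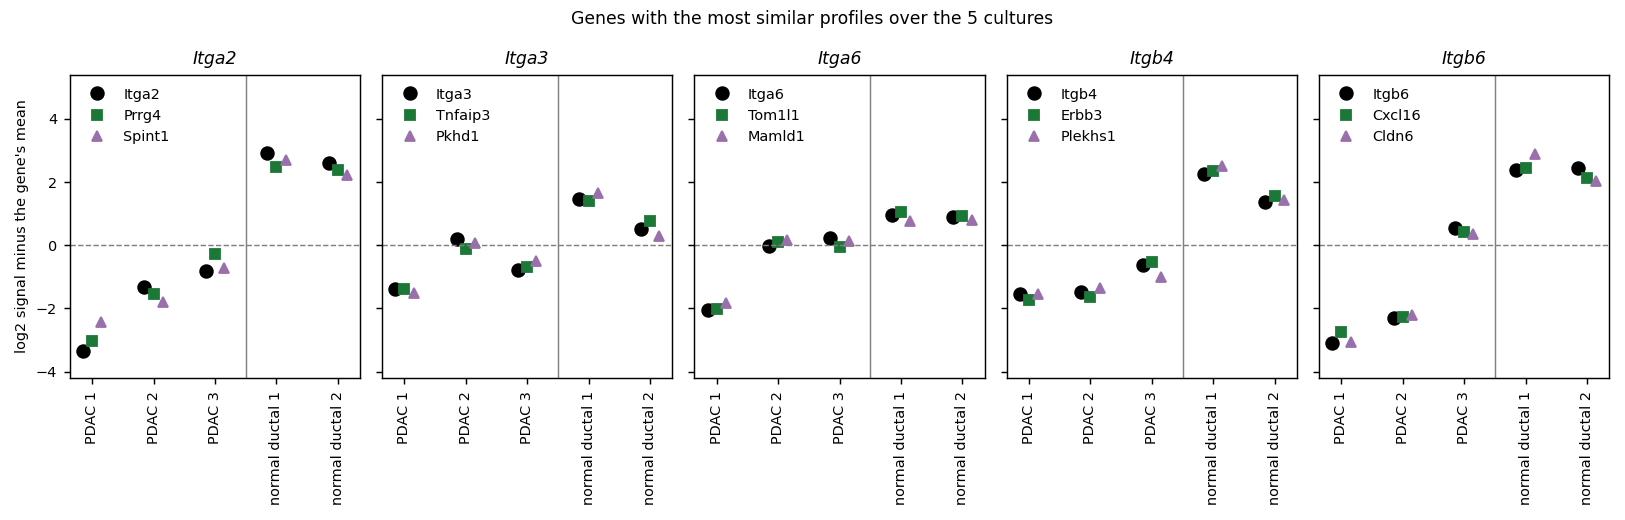
Log2 signal minus each gene's own mean (vertical axis) in the 3 PDAC and 2 normal ductal cultures for the 5 chains that span more than 2 on the log2 scale (black) and, for each, the 2 genes with the most similar profile (green and purple). PDAC replicate 3 lies between the other PDAC cultures and the normal ductal cultures for Itgb6, and PDAC replicate 1 lies apart for Itga6.

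The other 16 integrin chains, among them those of leukocytes, platelets and muscle, had 10 members below the median level of all genes in all 5 cultures (62.5%, against 44.8% of all genes tested). Limma called 0 at an adjusted p under 0.05, and their median log2 fold change was -0.02. At an unadjusted p under 0.05 it gave 0 higher and 1 lower, against 6.50% and 6.86% of all genes. Itgb3, the platelet and endothelial partner of alpha-v, was at 7.65, 7.81 and 8.48 in PDAC cultures, against 8.12 and 8.06 in normal ductal cultures, and overlapped (-0.11, SE 0.30, limma adjusted p = 0.892). The collagen receptor chain Itga11, known from fibroblasts, was at 8.36, 6.73 and 7.65 in PDAC cultures, against 5.96 and 6.91 in normal ductal cultures (1.14, SE 0.62, limma adjusted p = 0.550). Itgad, a leukocyte chain, had 0.36 (SE 0.15, limma adjusted p = 0.432). The leukocyte chain Itgb7, singled out after its values were seen, was at 7.76 in PDAC replicate 2 and at 6.02 in the other PDAC cultures, against 5.70 and 5.19 in normal ductal cultures.

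Among the 13 measured genes of laminins and basement membrane, the median log2 fold change was -0.47. Limma called 0 at an adjusted p under 0.05. At an unadjusted p under 0.05 it gave 1 higher and 2 lower, against 6.50% and 6.86% of all genes. The 2 lower ones encode chains of the epithelial laminin that is a ligand of the receptors with alpha3 and with alpha6 and beta4. Lamb3 was at 5.82, 6.32 and 6.88 in PDAC cultures, against 10.27 and 9.40 in normal ductal cultures (-3.50, SE 0.45, limma adjusted p = 0.165). Lama3 was at 5.82, 5.85 and 6.09 in PDAC cultures, against 8.33 and 7.40 in normal ductal cultures (-1.95, SE 0.32, limma adjusted p = 0.186). Lamb2, a laminin chain of other basement membranes, stood higher at 8.94, 9.21 and 9.25 in PDAC cultures, against 7.93 and 8.21 in normal ductal cultures (1.06, SE 0.16, limma adjusted p = 0.171). Nid1, the linker protein nidogen, had 0.73 (SE 0.36, limma adjusted p = 0.525).

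Over the 14 measured collagen genes the median log2 fold change was 1.16, with mean log2 signals of 9.26, 8.58 and 8.58 in PDAC cultures, against 7.46 and 8.40 in normal ductal cultures. Limma called 0 at an adjusted p under 0.05. At an unadjusted p under 0.05 it gave 3 higher and 2 lower, against 6.50% and 6.86% of all genes. Col6a1 and Col6a2, chains of the microfibrillar collagen VI, had 3.23 (SE 0.18, limma adjusted p = 0.0963) and 2.22 (SE 0.21, limma adjusted p = 0.140). The basement membrane collagens Col4a1 and Col4a2 had -1.77 (SE 0.60, limma adjusted p = 0.356) and -1.73 (SE 0.46, limma adjusted p = 0.290). Another of this type, Col4a5, stood higher in every PDAC culture, with 0.62 (SE 0.22, limma adjusted p = 0.372). Col4a3, Col4a4 and Col4a6 overlapped between the groups. Of the 14 collagen genes, 6 were above replicate 1 by more than 1 in normal ductal replicate 2, against 584 of all 19938 genes tested. Among them were Col1a1, Col1a2 and Col3a1, which were also counted with the fibroblast markers given above.

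Ligands of the RGD-binding integrins had a median log2 fold change of -0.02 over 13 measured genes. RGD is the peptide motif that alpha5 and the alpha-v receptors recognise. Limma called 0 of these genes at an adjusted p under 0.05. At an unadjusted p under 0.05 it gave 3 higher and 0 lower, against 6.50% and 6.86% of all genes. Tgfbi, a TGF-beta-induced matrix protein, was at 11.31, 9.18 and 9.84 in PDAC cultures, against 6.16 and 6.84 in normal ductal cultures (3.61, SE 0.75, limma adjusted p = 0.222). Npnt, the nephronectin gene, had 1.29 (SE 0.44, limma adjusted p = 0.361), tenascin C (Tnc) -1.16 (SE 0.43, limma adjusted p = 0.391) and Thbs1, thrombospondin, -0.53 (SE 0.26, limma adjusted p = 0.524). Vitronectin (Vtn), the ligand of the receptor with beta5, lay between 4.78 and 4.86 in all 5 cultures. The genes of the latent TGF-beta ligands, Tgfb1 and Tgfb3, overlapped between the groups, with -0.66 (SE 0.36, limma adjusted p = 0.550) and 1.05 (SE 0.60, limma adjusted p = 0.550).

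Of 10 partners of the laminin receptors, limma called 0 at an adjusted p under 0.05, and the median log2 fold change was -0.17. At an unadjusted p under 0.05, 1 was lower, against 6.86% of all genes. This was Cd151, the tetraspanin that binds the receptors with alpha3 and alpha6, at 9.54, 10.08 and 10.46 in PDAC cultures, against 11.12 and 10.80 in normal ductal cultures (-0.93, SE 0.32, limma adjusted p = 0.364). The tetraspanin Cd81 had -0.42 (SE 0.24, limma adjusted p = 0.550). Plectin (Plec), which links beta4 to keratin filaments, was at 10.31, 10.30 and 9.24 in PDAC cultures, against 10.08 and 9.76 in normal ductal cultures, and overlapped (0.03, SE 0.42, limma adjusted p = 1). Of the other hemidesmosome genes, Dst was at 8.62 to 9.36 in PDAC cultures, against 9.94 and 9.33 in normal ductal cultures. Col17a1 lay below the median level of all genes in all 5 cultures.

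Of the 30 measured focal adhesion adaptors and kinases, which join integrin tails to actin, 16 had all PDAC values below, and 5 above, those of the normal ductal cultures, against 12.8% and 13.6% of all genes. At an unadjusted p under 0.05, 11 were lower and 2 higher, against 6.86% and 6.50% of all genes. Limma called 0 at an adjusted p under 0.05, and the median log2 fold change was -0.39. Ilk, the integrin-linked kinase, was at 10.62, 10.81 and 10.58 in PDAC cultures, against 11.40 and 11.44 in normal ductal cultures (-0.75, SE 0.09, limma adjusted p = 0.163). The actin regulator Vasp had -0.61 (SE 0.11, limma adjusted p = 0.205). Higher in PDAC cultures were Tns2, a tensin, with 1.32 (SE 0.15, limma adjusted p = 0.148), and Parvb, the beta-parvin that binds Ilk, with 1.28 (SE 0.43, limma adjusted p = 0.352). Other genes of these families, singled out after their values were seen, were lower. Tns1 had -1.69 (SE 0.35, limma adjusted p = 0.223), Tns3 -0.64 (SE 0.17, limma adjusted p = 0.288) and Parva -0.30 (SE 0.08, limma adjusted p = 0.288).

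Kindlins, which bind the tails of beta chains and activate them, differed among themselves, and they were singled out after their values were seen. Fermt1, the kindlin of epithelia, was at 5.83, 6.28 and 9.22 in PDAC cultures, against 12.34 and 11.83 in normal ductal cultures (-4.98, SE 1.21, limma adjusted p = 0.264). PDAC replicate 3 again lay between the other PDAC cultures and the normal ductal cultures, as for Itgb6. Fermt2, the widely expressed kindlin, was at 10.71, 10.12 and 9.52 in PDAC cultures, against 10.34 and 11.05 in normal ductal cultures, and overlapped (-0.58, SE 0.45, limma adjusted p = 0.583).

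**Figure D4:**
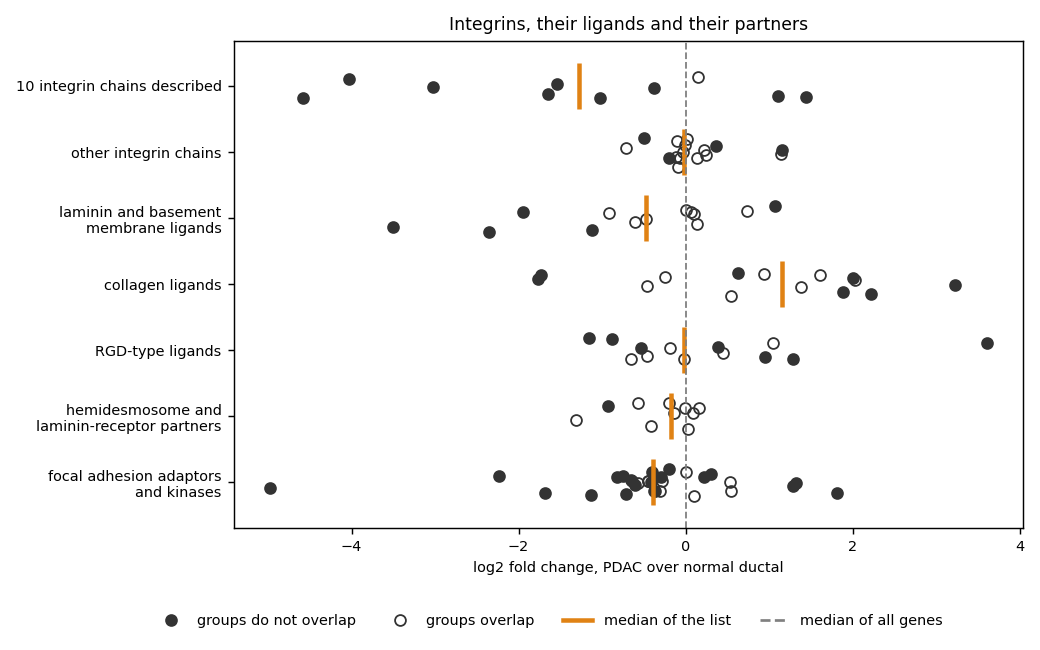
Log2 fold change of PDAC over normal ductal cultures (horizontal axis) for every measured gene of each list, filled where the groups do not overlap and open where they do, with the median of the list (orange) and of all genes (dashed line). The 10 chains described have a median of -1.28 and the collagen ligands of 1.16, while the other integrin chains gather around the median of all genes.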

How the data were processed

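The authors deposited 1 log2 signal for each of 35556 probe sets on 5 arrays. Per the labels' protocols, amplified RNA carried a biotin label and the arrays were of the Affymetrix whole-transcript kind, and Transcriptome Analysis Console 1.0.0.234 and mm10 were named, per the submitters' processing notes. How background was corrected, how arrays were normalized and which logarithm was taken is not given in the sources used here. Values of 0.727 to 13.9 were read as log2, and another base would change folds but not tests. Signals of different probe sets are not comparable as amounts, and low signals lie near background, which compresses fold changes.

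Gene names came from the platform annotation. The 1621 probe sets that list several symbols and the 12146 that list none here did not enter the tests. Of several probe sets of a gene the one with the highest mean was kept, which left 19938 genes. Groups came from the titles. Limma 3.58.1 in R 4.3.3 (lmFit, eBayes with an intensity trend, two-sided, 3 residual and 0.91 prior degrees of freedom) tested all genes, with Benjamini-Hochberg adjustment and a threshold of 0.05, and was tested on simulated data. Other integrin genes, ligands and partners were named by the 2 smallest p-values in each direction among genes above the median level (6.61), markers by their gap between replicates, and profile neighbours by distance. Genes named beyond this rule, beside a receptor chain they bind or as markers, were picked for their role or after their values were seen. The members and lists were chosen with earlier results of these data known. Loci and promoters come from RefSeq on GRCm38.p6. Python 3.11.15, pandas 2.3.3 and matplotlib 3.10.9 drew figures and searched motifs. Alternatives, 15 in all, changed the normalization (quantiles, equal medians), the filter on low genes (lowest 25% or 50% removed), the variance model, the array weights, the choice of probe set and the samples (replicate number as a block, each culture left out).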

Additional observations from a re-analysis of the deposited data

How the results depend on the processing

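None of the 10 integrin chains passed an adjusted p under 0.05 in any of the 15 alternatives by limma. In all 15, 9 chains kept their direction. Filters on low genes and the variance model leave fold changes as they are. So does the choice of probe set, as each chain has 1. The replicate block repeats the fold changes without PDAC replicate 3. Where both normal ductal cultures were kept, 6 to 8 chains had a limma unadjusted p under 0.05, against 7 as reported. In the same fits 1949 to 3123 of the genes tested did, against 2663 as reported. These counts do not share 1 total. Without the lowest 50% of genes it was 2045 of the genes left, a larger share than in the main fit. With all probe sets it was 2877 of 21789 probe sets. Of the 10 chains, 0 lay below the median level in every culture, against 44.8% of all genes tested. Itga5 turned to -0.25 without PDAC replicate 1 and to -0.55 without normal ductal replicate 1, with a highest value of 0.84 when a culture was left out. The lowest adjusted p of any chain was 0.0622, for Itgb5. The count of all genes past the threshold, 1 higher and 10 lower as reported, was 9 and 32 after quantile normalization and 10 and 23 with arrays at a common median. It was 15 and 27 without the lowest 50% of genes, 3 higher without the lowest 25%, 0 and 3 with array weights, and 0 and 1 with all probe sets tested. Leaving out 1 culture gave 0 to 980 higher and 0 to 865 lower genes. Without a normal ductal culture the lone array left is assumed to vary like the PDAC arrays. With the replicate block the count was 0 and 0 (2214 genes at an unadjusted p under 0.05 by limma), and Itgb6 had -5.10, since PDAC replicate 3 has no partner and adds nothing to that fit. The cause of these shifts was not tested. The numbers do not show that cultures were paired: deviations from the group means correlated across genes at -0.18 for replicates 1 and at -0.04 for replicates 2. Deviations of the 2 normal ductal cultures mirror each other, so these values are not separate checks and cannot decide on pairing. All 6 differences between chains kept their sign in the 8 alternatives run. Among these, equal array medians and the mean of all probe sets cannot change a within-array difference of these chains. No detection values were used here, so how far low signals stand above background is not known.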
